A study of Mus musculus with 17 samples.

Results

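The comparison set skeletal muscle of diabetic mice fed bezafibrate (BEZ) against skeletal muscle of diabetic mice fed a standard diet (SD). It used 10 of the 17 arrays of the series, 5 of the group STZ,BEZ and 5 of the group STZ,SD, chosen by their labels alone, and 19938 genes with 1 probe set each. All mice were wildtype C57BL/6N males of 5 to 6 months. The mice of both STZ groups had received streptozotocin (STZ), a toxin that enters and destroys the insulin-producing beta cells of the pancreas, at 65 mg/kg on 5 days. From 2 weeks later and for 8 weeks the STZ,BEZ mice ate chow that contained bezafibrate at 0.25% or 0.5%, while the STZ,SD mice ate the same chow without drug. The labels do not say which mouse ate which strength, so the strengths were analysed as 1 group and no dose comparison was possible. The remaining 7 arrays came from mice injected with citrate buffer and fed the standard diet (Con,SD). They also entered the fit and are given beside the results. The question was which transcripts bezafibrate altered in muscle of insulin-deficient mice. Streptozotocin lowers insulin in the whole animal. The model thus does not separate direct effects of the drug on muscle from effects through liver, fat or blood glucose.

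All 10 arrays carried a strong muscle signal. The mean log2 level of 10 fibre genes was between 13.36 and 13.58 on every array of the series, and the fibre list differed between STZ,BEZ and STZ,SD by a median of 0.003. Correlations between arrays over all genes were 0.988 to 0.996 within STZ,SD, 0.993 to 0.995 within STZ,BEZ and 0.959 to 0.995 within Con,SD. Con,SD array 1 stood apart with a hepatocyte marker level of 11.73 and a testis marker level of 8.98, each the highest of the 17 arrays, and it was also the highest Con,SD array for several lipid genes, which enters the spread that all groups share in the fit. Within STZ,SD, arrays 2 and 3 had the lowest fibroblast marker levels (8.74 and 8.86 against 9.57 to 9.82) and the lowest levels of Igfbp5 (9.34 and 9.36 against 11.08 to 11.44). Values without both arrays are given beside the results that moved most when they were left out.

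Bezafibrate is a ligand of the peroxisome proliferator-activated receptors (PPARs), nuclear receptors that pair with the retinoid X receptor and switch on genes of fatty acid transport and of mitochondrial, peroxisomal and omega oxidation. The liver X receptors (LXRs) use the same partner, respond to oxidised cholesterol, and drive genes of cholesterol export together with Srebf1, which encodes the lipogenic factor SREBP-1. In muscle, insulin is known to raise Srebf1 and the fatty acid synthesis genes, and insulin deficiency is known to shift fuel use towards fatty acids and to promote protein breakdown.

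With limma over all 3 groups, 4 genes rose in STZ,BEZ compared with STZ,SD at an adjusted p under 0.1, which was 0.0201% of the genes tested, and 0 genes (0%) fell. The 4 were Srebf1, Scd1, Scd2 and Lpcat3, and each of them acts in the synthesis or the remodelling of lipids. At an unadjusted p under 0.05, 707 genes (3.55%) were higher and 427 genes (2.14%) were lower in STZ,BEZ. The 5 STZ,BEZ values lay entirely above the 5 STZ,SD values for 135 genes (0.677%) and entirely below them for 97 genes (0.487%). Significance analysis of microarrays (SAM), the method of the study, called 24 genes (0.12%) higher and 1 gene (0.00502%) lower on the 10 arrays, and the 4 genes called by limma were among them. Over all genes the median difference was 0.002 on the log2 scale, and 50.7% of the genes had a difference above 0.

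Srebf1 (probe set 10386473) encodes SREBP-1, the transcription factor that switches on fatty acid synthesis genes. Its log2 level was 8.51, 8.49, 8.28, 9.12 and 8.77 in STZ,SD arrays 1 to 5 and 9.97, 9.97, 9.73, 9.70 and 9.60 in STZ,BEZ arrays 1 to 5. All 5 STZ,BEZ arrays were above every STZ,SD array and also above every Con,SD array, where the level was 8.92 ± 0.19 (SD, n = 7). Srebf1 rose by 1.16 ± 0.13 (log2, SE), which is 2.24-fold, with an adjusted p of 0.000732 (limma).

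Scd1 (probe set 10467979) and Scd2 (probe set 10463355) encode stearoyl-CoA desaturases, which put a double bond into saturated fatty acids. The log2 level of Scd1 was 9.58, 9.71, 8.82, 11.49 and 10.17 in STZ,SD and 12.65, 12.63, 12.29, 12.05 and 12.08 in STZ,BEZ. The groups did not overlap, and the STZ,SD arrays were widely spread, with array 4 nearest to the treated mice. Scd1 rose 5.24-fold (2.39 ± 0.33, adjusted p = 0.00457, limma), which was the largest log2 difference of the 19938 genes, and the STZ,BEZ level was close to the 12.67 ± 0.33 (SD, n = 7) of Con,SD. The log2 level of Scd2 was 8.71, 8.30, 8.05, 9.38 and 8.69 in STZ,SD and 10.87, 10.62, 10.64, 10.32 and 9.90 in STZ,BEZ. Again no array of one group reached the other, and 4 of the 5 STZ,BEZ arrays exceeded the highest Con,SD array. Scd2 rose 3.59-fold (1.84 ± 0.21, adjusted p = 0.000732, limma). The genes are close relatives, and whether probes of one also bind transcripts of the other was not tested.

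Lpcat3 (probe set 10541695) encodes lysophosphatidylcholine acyltransferase 3, which adds a polyunsaturated fatty acid to lysophosphatidylcholine and so makes phosphatidylcholine. Its log2 level was 9.56, 9.12, 9.35, 9.36 and 9.29 in STZ,SD and 9.88, 10.10, 9.84, 10.01 and 10.01 in STZ,BEZ. The treated arrays were tightly grouped, above all STZ,SD arrays and above all 7 Con,SD arrays (9.62 ± 0.13, SD). Lpcat3 rose 1.55-fold (0.63 ± 0.09, adjusted p = 0.00457, limma). The list of phosphatidylcholine remodelling enzymes to which it belongs held 29 measured genes, of which 16 were above 0 and 13 below, with a median of 0.03. At an unadjusted p under 0.05, 4 were higher and 0 lower, against 3.55% and 2.14% of all genes. For 2 the groups were apart and higher, against 0.677% of all genes. The mean level of the list, Lpcat3 included, was 7.76 to 7.83 in STZ,SD and 7.84 to 7.87 in STZ,BEZ.

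**Figure D1:**
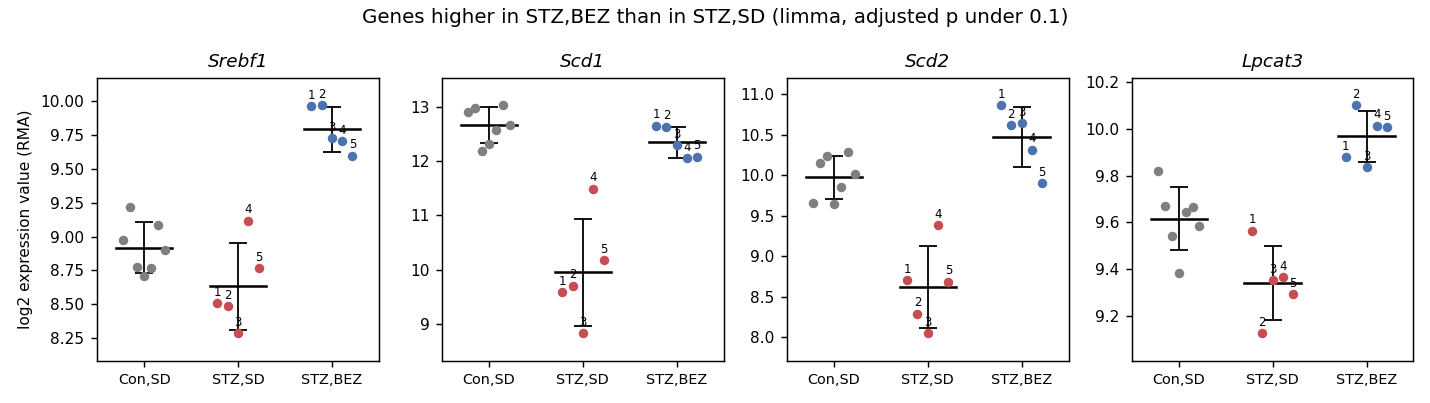
Log2 RMA level of Srebf1, Scd1, Scd2 and Lpcat3 on every array of Con,SD (n = 7), STZ,SD (n = 5) and STZ,BEZ (n = 5). Points are arrays, numbered in the STZ groups, and bars are the mean ± SD. In each panel the 5 STZ,BEZ points lie above the 5 STZ,SD points, and for Srebf1 and Lpcat3 they also lie above all Con,SD points.

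Against Con,SD the 4 genes did not form one pattern, and the values below share the STZ,SD or STZ,BEZ arrays with the comparison above. STZ,SD differed from Con,SD by -2.71 ± 0.31 for Scd1 (adjusted p = 1.9e-05, limma) and by -1.35 ± 0.20 for Scd2 (adjusted p = 0.000168). For Srebf1 and Lpcat3 that difference was only -0.28 ± 0.12 (adjusted p = 0.118) and -0.28 ± 0.08 (adjusted p = 0.0203). In STZ,BEZ, Srebf1 and Lpcat3 stood above Con,SD by 0.88 ± 0.12 (adjusted p = 0.000206) and by 0.35 ± 0.08 (adjusted p = 0.00618). For Scd1 the difference between STZ,BEZ and Con,SD was -0.32 ± 0.31 (adjusted p = 0.505) and for Scd2 it was 0.49 ± 0.20 (adjusted p = 0.103).

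Of the 4 called genes the promoter table used here held Srebf1, with 3 start sites, and Lpcat3, with 1, while Scd1 and Scd2 are named only. The windows span 250 bases before to 50 bases after the start (RefSeq, GRCm38.p6) and are shown because both genes rose together and because SREBP is known to act beside NF-Y and Sp1 at its target promoters. They are chr11:60222532-60222831, chr11:60220578-60220877 and chr11:60210422-60210721 on the minus strand for Srebf1 and chr6:124662854-124663153 on the plus strand for Lpcat3. Capitals mark the NF-Y box CCAAT and the GC box GGGCGG on either strand.
Srebf1 window 1: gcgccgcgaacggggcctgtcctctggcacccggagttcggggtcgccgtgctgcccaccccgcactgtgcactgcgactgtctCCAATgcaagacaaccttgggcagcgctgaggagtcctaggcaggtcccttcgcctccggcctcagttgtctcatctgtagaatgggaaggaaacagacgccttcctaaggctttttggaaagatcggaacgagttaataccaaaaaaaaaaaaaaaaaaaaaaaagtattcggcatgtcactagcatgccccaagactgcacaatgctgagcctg
Srebf1 window 2: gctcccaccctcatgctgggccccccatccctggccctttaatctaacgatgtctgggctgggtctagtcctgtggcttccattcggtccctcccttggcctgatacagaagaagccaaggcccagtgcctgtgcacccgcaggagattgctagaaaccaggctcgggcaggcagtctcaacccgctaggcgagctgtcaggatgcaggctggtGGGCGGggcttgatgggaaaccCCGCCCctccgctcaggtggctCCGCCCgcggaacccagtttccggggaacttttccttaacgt
Srebf1 window 3: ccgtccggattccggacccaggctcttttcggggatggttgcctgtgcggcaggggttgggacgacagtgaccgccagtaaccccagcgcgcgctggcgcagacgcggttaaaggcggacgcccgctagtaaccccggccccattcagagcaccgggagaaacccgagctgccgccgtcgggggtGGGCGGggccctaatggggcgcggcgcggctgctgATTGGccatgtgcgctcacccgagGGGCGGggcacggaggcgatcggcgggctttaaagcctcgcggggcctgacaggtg
Lpcat3 window 1: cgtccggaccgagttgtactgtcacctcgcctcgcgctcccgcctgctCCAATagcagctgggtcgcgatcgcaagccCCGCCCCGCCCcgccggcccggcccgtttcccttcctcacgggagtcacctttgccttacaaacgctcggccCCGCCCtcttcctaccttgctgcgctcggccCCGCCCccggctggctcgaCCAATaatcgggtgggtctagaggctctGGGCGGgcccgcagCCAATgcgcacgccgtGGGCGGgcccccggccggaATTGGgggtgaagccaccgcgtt
The first Srebf1 window held 1 NF-Y box, the second held 3 GC boxes, and the third held 1 NF-Y box and 2 GC boxes. The Lpcat3 window held 4 NF-Y boxes and 6 GC boxes, of which 2 neighbours overlapped. Among the 32851 promoter windows of that length, 37.4% held CCAAT and 35.7% held GGGCGG on one strand or the other, so both motifs are common. The E-box CACGTG (in 7.15% of windows), the nuclear receptor half-site AGGTCA (16.3%) and the sterol regulatory element core CACCCCAC (2.87%) had no exact match in these 4 windows, which concerns only those letters in these stretches.

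Fatty acid synthesis genes as a group were higher in STZ,BEZ. All 28 listed genes of synthesis, elongation and desaturation were measured, 24 of them were above 0 and their median was 0.24, against 0.002 over all genes. Scd1 and Scd2 passed limma, and 8 genes were higher and 0 lower at an unadjusted p under 0.05, against 3.55% and 2.14% of all genes. For 6 genes (Scd1, Scd2, Fasn, Elovl5, Fads1 and Fads2) the groups did not overlap, against 0.677% of all genes that were entirely higher. The mean level of the list was 7.97, 7.78, 7.76, 7.96 and 7.88 in STZ,SD and 8.31, 8.42, 8.19, 8.22 and 8.15 in STZ,BEZ. No STZ,SD array reached an STZ,BEZ array.

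Fasn, the fatty acid synthase that builds palmitate, had log2 levels of 8.57, 7.55, 7.62, 8.17 and 7.73 in STZ,SD and 9.91, 9.82, 9.23, 8.76 and 8.65 in STZ,BEZ. The groups were apart, but STZ,BEZ arrays 4 and 5 were only slightly above STZ,SD array 1. The difference was 1.35 ± 0.27 (adjusted p = 0.298, limma), and SAM called the gene higher. Acaca, the acetyl-CoA carboxylase of the committed step, was at 8.22, 8.02, 7.95, 7.80 and 7.60 in STZ,SD and at 8.58, 8.77, 8.39, 8.49 and 8.19 in STZ,BEZ, which overlapped at one array of each group. Its difference was 0.56 ± 0.13 (adjusted p = 0.355, limma), also with a SAM call. Upstream of both, Slc25a1, which exports citrate from mitochondria, was 0.71 ± 0.23 higher (adjusted p = 0.778) and Acly, which splits citrate into acetyl-CoA, was 0.36 ± 0.14 higher (adjusted p = 0.826), with overlapping groups.

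Enzymes of polyunsaturated fatty acid synthesis did not pass limma. Fads2, the delta-6 desaturase, was at 8.17, 8.31, 7.87, 8.21 and 8.46 in STZ,SD and at 8.80, 8.93, 8.65, 8.67 and 8.99 in STZ,BEZ, a difference of 0.61 ± 0.31 (adjusted p = 0.903, limma). Fads1, the delta-5 desaturase, was 0.51 ± 0.24 higher (adjusted p = 0.870) and Elovl5, an elongase, 0.38 ± 0.29 higher (adjusted p = 0.969). The groups were apart for all 3 genes, and SAM called Fads2 and Elovl5. Their SEs in the 3-group fit rest in part on Con,SD array 1, where Fads2 was 10.52 and Elovl5 was 9.99. Without that array Fads2 passed the limma threshold with the same difference. Tlcd1, a membrane protein linked to the fatty acid make-up of phospholipids, was also apart, 0.61 ± 0.21 higher (adjusted p = 0.778), with a SAM call.

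Of 9 measured regulators of the SREBP pathway 8 were above 0, with a median of 0.07, and Srebf1 was the one that passed. Insig1, which holds SREBP in the endoplasmic reticulum and is itself a SREBP target, was 0.52 ± 0.18 higher (adjusted p = 0.778, limma). Srebf2, which encodes the factor of the cholesterol branch, was 0.15 ± 0.10 higher (adjusted p = 0.951). Cholesterol synthesis genes were above 0 in 16 of 18 cases with a median of 0.15, and 0 of them passed limma. The lowest p among them belonged to Dhcr7, the last enzyme of the pathway, at 0.36 ± 0.13 (adjusted p = 0.778), while Hmgcs1, the HMG-CoA synthase, was 0.28 ± 0.14 higher (adjusted p = 0.898).

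LXR targets of cholesterol export stood beside the lipogenic genes. Of 13 measured LXR receptors and targets, Srebf1 and Scd1 included, 10 were above 0 with a median of 0.39. The groups were apart for 6 of them, against 0.677% of all genes that were entirely higher. The 6 were Srebf1, Scd1 and Lpcat3, which limma called, and Abca1, Abcg1 and Mylip, which SAM called. Abca1, the transporter that passes cholesterol to apolipoprotein A-I, was at 8.97, 9.25, 8.93, 8.41 and 8.16 in STZ,SD and at 9.47, 9.88, 9.41, 9.65 and 9.85 in STZ,BEZ. Every treated array was above all STZ,SD and all Con,SD arrays, and within STZ,SD arrays 4 and 5 were lowest. The difference was 0.91 ± 0.17 (adjusted p = 0.221, limma).

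Abcg1, which exports cholesterol to mature HDL, was at 7.18, 7.26, 7.35, 7.18 and 7.01 in STZ,SD and at 7.65, 7.80, 7.60, 7.53 and 7.54 in STZ,BEZ, a difference of 0.43 ± 0.09 (adjusted p = 0.298). Mylip, a ubiquitin ligase that marks the LDL receptor for breakdown, was at 9.11, 9.36, 9.21, 9.01 and 8.89 in STZ,SD and at 9.54, 9.74, 9.42, 9.38 and 9.74 in STZ,BEZ, a difference of 0.45 ± 0.09 (adjusted p = 0.298). Both genes were higher in all 5 STZ,BEZ arrays than in any other array of the series. For Abca1, Abcg1 and Mylip the difference between STZ,BEZ and Con,SD, which shares the STZ,BEZ arrays, was 1.18 ± 0.16, 0.48 ± 0.08 and 0.56 ± 0.09, with adjusted p of 0.000158, 0.000837 and 0.000483 (limma). Between STZ,SD and Con,SD the same 3 genes differed by 0.27 ± 0.16, 0.06 ± 0.08 and 0.11 ± 0.09, with adjusted p of 0.252, 0.667 and 0.392. In contrast to Scd1 and Scd2, these genes were thus not low in STZ,SD.

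The LXRα gene Nr1h3 itself was 0.10 ± 0.09 higher (adjusted p = 0.971, limma), and Pltp, the phospholipid transfer protein, was 0.39 ± 0.12 higher (adjusted p = 0.778) with overlapping groups. Scarb1, the HDL receptor SR-BI, was at 8.33, 8.44, 8.30, 8.33 and 8.18 in STZ,SD and at 8.68, 8.91, 8.86, 8.78 and 8.80 in STZ,BEZ. The groups were apart by a clear gap, the difference was 0.49 ± 0.13 (adjusted p = 0.738), and SAM called the gene higher. Without STZ,SD arrays 2 and 3, a setting chosen after seeing the data, the 4 called genes remained called and Abca1 passed the limma threshold as well. The median of the LXR list was then 0.24 and that of the fatty acid synthesis list was 0.16.

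**Figure D2:**
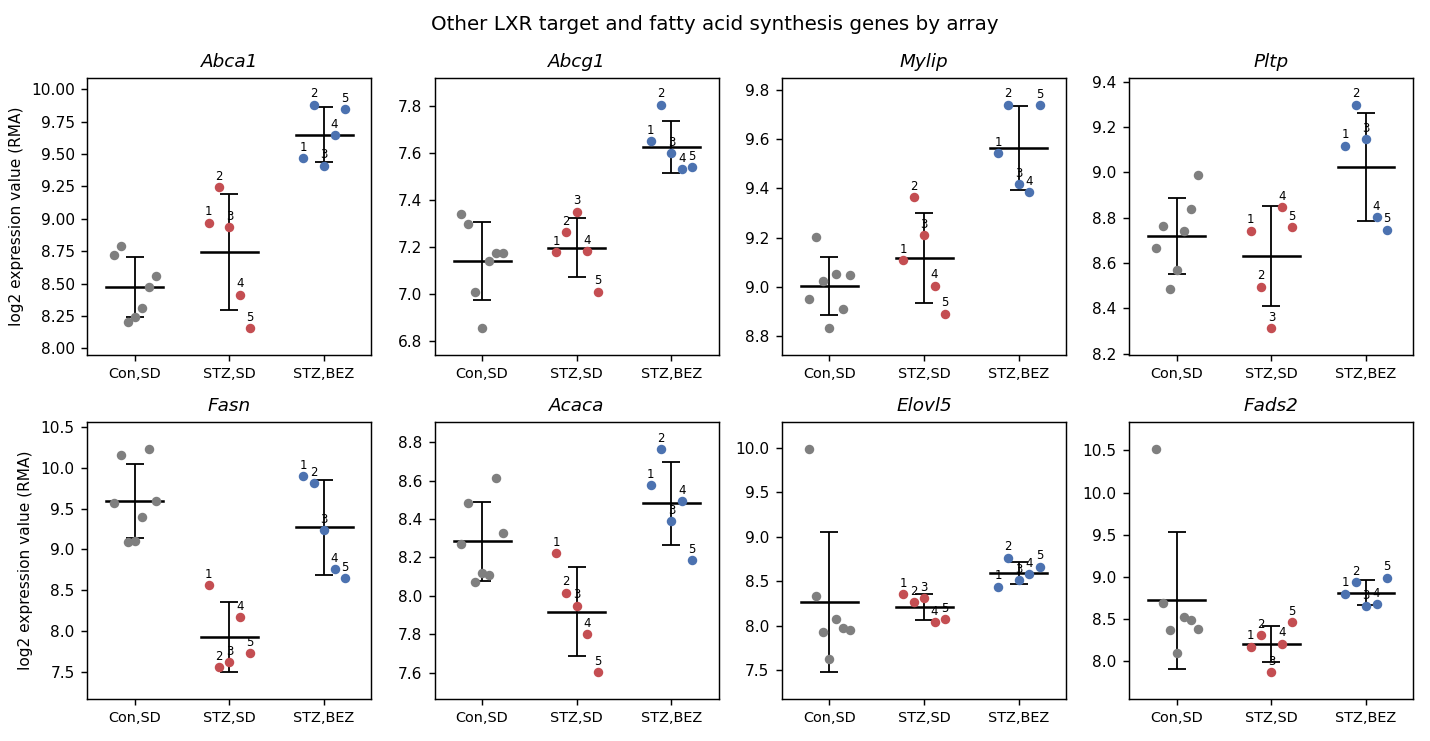
Log2 RMA level of other LXR target and fatty acid synthesis genes on every array of Con,SD (n = 7), STZ,SD (n = 5) and STZ,BEZ (n = 5). Points are arrays, numbered in the STZ groups, and bars are the mean ± SD. The STZ,BEZ points of Abca1, Abcg1 and Mylip lie above all other arrays, whereas Fasn in STZ,BEZ lies within or below the range of Con,SD.

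Among PPAR targets the clearest differences were in peroxisomal and omega oxidation, and 1 treated mouse stood apart for Cyp4a14, Cyp4a10, Cyp4a31 and Ehhadh. Cyp4a14, a cytochrome P450 that hydroxylates the omega end of fatty acids, was at 5.48, 6.08, 5.57, 5.77 and 5.70 in STZ,SD and at 7.32, 7.14, 6.86, 6.89 and 9.96 in STZ,BEZ. The groups were apart, and STZ,BEZ array 5 was far above the others. The difference was 1.91 ± 0.40 (adjusted p = 0.298, limma), with a SAM call. Cyp4a10, a second omega hydroxylase, was at 5.69, 5.78, 5.46, 5.28 and 5.74 in STZ,SD and at 6.38, 6.34, 6.28, 6.45 and 8.10 in STZ,BEZ, a difference of 1.12 ± 0.26 (adjusted p = 0.433). Cyp4a31, from the same gene family, was at 4.26, 4.19, 3.86, 4.06 and 4.25 in STZ,SD and at 5.16, 5.36, 4.58, 4.86 and 7.95 in STZ,BEZ, a difference of 1.46 ± 0.43 (adjusted p = 0.778). These Cyp4a genes are near-identical neighbours, so how much of each signal is shared between their probe sets is uncertain.

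Ehhadh, the bifunctional enzyme of peroxisomal beta-oxidation, was at 7.31, 7.17, 7.09, 7.08 and 7.04 in STZ,SD and at 8.18, 7.89, 7.76, 7.96 and 9.52 in STZ,BEZ. Here too the groups were apart and array 5 was highest. The difference was 1.12 ± 0.27 (adjusted p = 0.513, limma), with a SAM call. Without STZ,BEZ array 5 the differences of Cyp4a14, Cyp4a10, Cyp4a31 and Ehhadh were 1.33, 0.77, 0.87 and 0.81, and Cyp4a14 and Cyp4a10 passed the limma threshold, with adjusted p of 0.000299 and 0.0403. The hepatocyte marker level of that array was 8.51, the highest of STZ,BEZ (7.82 to 8.51) but within the STZ,SD range of 8.25 to 9.02. The part of liver RNA in these values was not tested.

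In the whole peroxisomal and omega oxidation list 22 of 31 measured genes were above 0, with a median of 0.09, and 0 passed limma. At an unadjusted p under 0.05, 9 were higher and 0 lower, against 3.55% and 2.14% of all genes. The groups were apart for 6 of the 31, against 0.677% of all genes that were entirely higher. Those apart were the 4 genes above, Phyh, which starts the breakdown of phytanic acid, at 0.30 ± 0.10 (adjusted p = 0.778), and Abcd2, a peroxisomal fatty acid transporter, at 0.30 ± 0.12 (adjusted p = 0.826). Mitochondrial beta-oxidation and fatty acid uptake genes were above 0 in 31 of 35 cases with a median of 0.10, and 0 passed limma. At an unadjusted p under 0.05, 9 were higher and 1 lower, and the groups were apart and higher for 2. The shares over all genes were 3.55%, 2.14% and 0.677%. Of these, Cpt2, the inner carnitine palmitoyltransferase, was 0.31 ± 0.09 higher, Slc25a20, the carnitine-acylcarnitine carrier, 0.33 ± 0.11 higher, and Acads, the short-chain acyl-CoA dehydrogenase, 0.26 ± 0.08 higher, each with an adjusted p of 0.778. Slc25a20 and the carnitine transporter gene Slc22a5 (0.25 ± 0.11, adjusted p = 0.847) were the members whose groups were apart.

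Other well known PPAR targets of muscle lay on both sides of 0, and none passed limma. Pdk4, which blocks pyruvate dehydrogenase by phosphorylation, was at 12.65, 12.95, 13.14, 12.47 and 12.81 in STZ,SD and at 12.16, 12.57, 12.22, 12.35 and 12.93 in STZ,BEZ. The groups overlapped and the difference was -0.36 ± 0.17 (adjusted p = 0.870, limma). Relative to Con,SD (11.80 ± 0.30, SD, n = 7) Pdk4 was 1.01 ± 0.15 higher in STZ,SD and 0.65 ± 0.15 higher in STZ,BEZ, with adjusted p of 0.000263 and 0.00916. Angptl4, an inhibitor of lipoprotein lipase, differed by -0.32 ± 0.19 (adjusted p = 0.925), Cd36, the fatty acid translocase, by -0.05 ± 0.13 and Ucp3, a mitochondrial uncoupling protein, by 0.13 ± 0.17 (adjusted p = 0.997 for both). Lpl, lipoprotein lipase, differed by 0.14 ± 0.17 (adjusted p = 0.997). Of the lipid droplet genes, Plin2, the droplet coat protein perilipin-2, was 0.47 ± 0.13 higher and Fitm1, which helps droplets form, was 0.25 ± 0.08 higher (adjusted p = 0.778 for both).

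**Figure D3:**
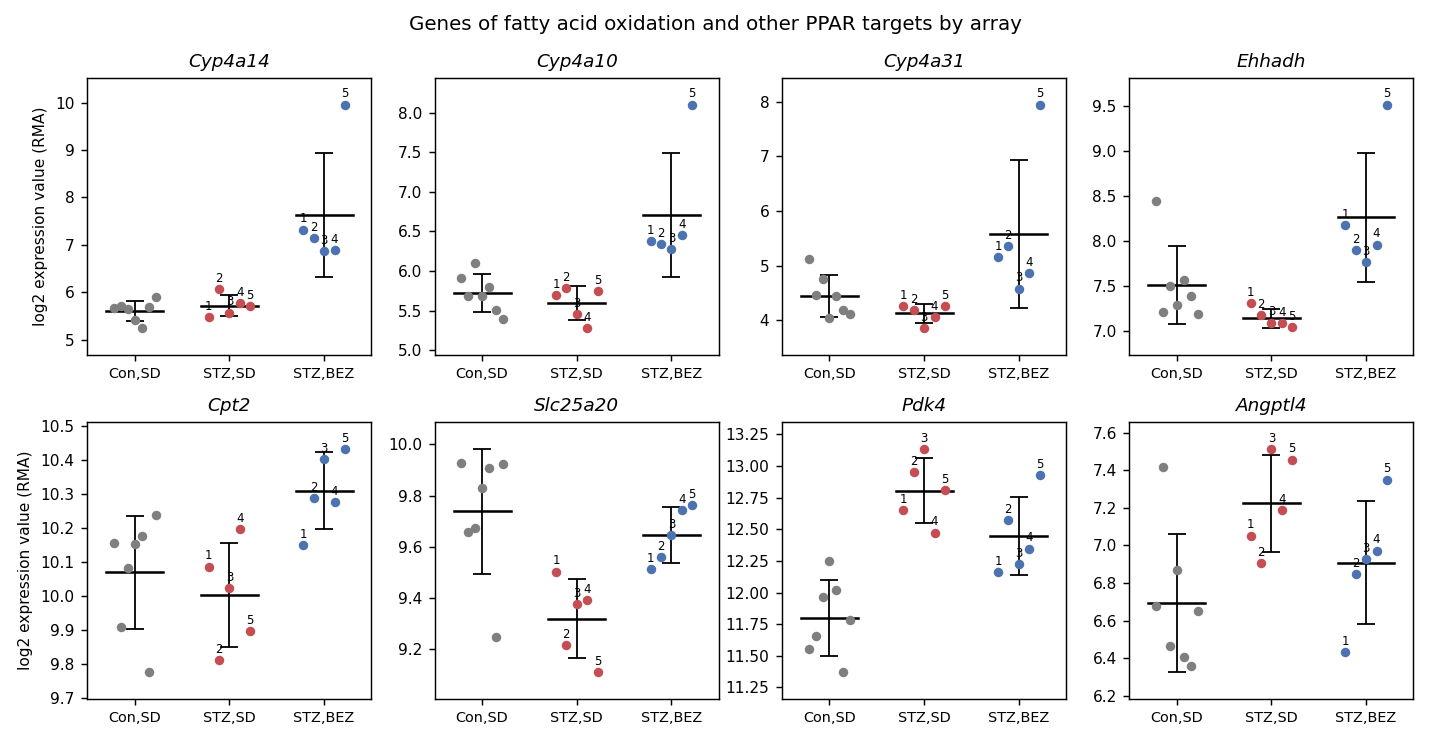
Log2 RMA level of PPAR target genes on every array of Con,SD (n = 7), STZ,SD (n = 5) and STZ,BEZ (n = 5). Points are arrays, numbered in the STZ groups, and bars are the mean ± SD. STZ,BEZ array 5 stands far above arrays 1 to 4 for Cyp4a14, Cyp4a10 and Ehhadh, while the STZ groups overlap for Pdk4.

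The receptors themselves were close in both groups. Ppara, the receptor of liver and oxidative muscle, differed by 0.05 ± 0.20, Ppard, the form that prevails in muscle, by -0.06 ± 0.08, and Pparg, the form of fat cells, by -0.01 ± 0.16. The coactivator gene Ppargc1a differed by 0.07 ± 0.07 and Fgf21, a hormone gene under PPAR control in liver, by 0.03 ± 0.07 at a low level (5.60 to 5.85 in both groups). The adjusted p of these genes was between 0.987 and 1 (limma), and 0 of 18 measured PPAR, RXR, ERR and PGC-1 regulators reached an unadjusted p under 0.05. Of all genes 3.55% were higher and 2.14% lower at that p.

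Genes of mitochondrial energy metabolism lay above 0 in large majorities, by small amounts. All 34 measured complex I genes were above 0 with a median of 0.12 and a range of 0.005 to 0.354, and so were 34 of 38 genes of complexes III, IV and ATP synthase (median 0.11), 67 of 77 mitochondrial ribosomal proteins (median 0.11) and 18 of 20 genes of the TCA cycle (median 0.11). None of these genes passed limma, while 5, 7, 15 and 4 of them were higher at an unadjusted p under 0.05 and 0 were lower. The shares over all genes at that p were 3.55% higher and 2.14% lower. By contrast 28 of 61 cytosolic ribosomal proteins were above 0 with a median of -0.01. The mean complex I level was 10.65, 10.42, 10.54, 10.67 and 10.55 in STZ,SD and 10.65, 10.63, 10.82, 10.74 and 10.59 in STZ,BEZ. The groups overlapped, and STZ,SD arrays 2 and 3 had the lowest values. Without these arrays the complex I median was 0.05 and that of the mitochondrial ribosomal proteins was 0.06. The members of a list are measured on the same arrays and are not independent of each other.

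Within these lists Ndufb8, a complex I subunit, was at 10.48, 10.28, 10.33, 10.52 and 10.40 in STZ,SD and at 10.53, 10.54, 10.73, 10.68 and 10.63 in STZ,BEZ, apart by a narrow margin (0.22 ± 0.08, adjusted p = 0.778, limma). Cox8b, a complex IV subunit of muscle, was apart as well with 0.13 ± 0.05 (adjusted p = 0.797), and so was Sdhb of complex II with 0.18 ± 0.07 (adjusted p = 0.802). Overlapping groups were seen for Ndufa8 (0.22 ± 0.08), Uqcr11 of complex III (0.21 ± 0.07) and the mitochondrial ribosomal protein gene Mrpl55 (0.22 ± 0.07), each with an adjusted p of 0.778. Fh1, the fumarase of the TCA cycle, was 10.59, 10.47, 10.65, 10.84 and 10.56 in STZ,SD and 10.90, 10.73, 11.08, 10.95 and 10.70 in STZ,BEZ. That was a difference of 0.25 ± 0.10 (adjusted p = 0.796) with overlap, and every array of both groups but 1 was below the lowest Con,SD array. Against Con,SD the difference of Fh1 was -0.76 ± 0.09 in STZ,SD (adjusted p = 2.5e-05) and -0.51 ± 0.09 in STZ,BEZ (adjusted p = 0.00109), from contrasts that share arrays with this one.

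In glucose use, 12 of 13 genes of pyruvate dehydrogenase and its regulators were above 0 with a median of 0.10. Pdk1, another kinase of the complex, was at 8.43, 8.30, 8.34, 8.47 and 8.47 in STZ,SD and at 8.64, 8.76, 8.73, 8.64 and 8.52 in STZ,BEZ. It was above all STZ,SD and all Con,SD arrays in every treated mouse, with a difference of 0.26 ± 0.06 (adjusted p = 0.444, limma). Thus Pdk1 and Pdk4 differed in opposite directions, neither past the threshold. Dlat, the acetyltransferase of the complex, was 0.24 ± 0.08 higher (adjusted p = 0.778). Of 26 glycolysis and glycogen genes 21 were above 0 with a median of 0.05, among them Hk2, the insulin-regulated hexokinase of muscle, at 0.37 ± 0.11 (adjusted p = 0.778). Slc2a4, the insulin-responsive glucose transporter GLUT4, differed by 0.19 ± 0.08 (adjusted p = 0.867), and of 35 insulin and IGF signalling genes 13 were above 0 with a median of -0.03. Branched-chain amino acid breakdown genes were above 0 in 17 of 20 cases with a median of 0.11, and Pccb, a propionyl-CoA carboxylase subunit, was 0.30 ± 0.09 higher (adjusted p = 0.778).

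Interferon response and antigen presentation genes were mostly lower in STZ,BEZ. Of 33 measured genes 24 were below 0 with a median of -0.07. At an unadjusted p under 0.05, 7 were lower and 2 higher, against 2.14% lower and 3.55% higher over all genes. In limma 0 passed, and 3 were entirely below STZ,SD, against 0.487% of all genes. The mean level of the list overlapped, with 7.22 to 7.65 in STZ,SD and 7.22 to 7.42 in STZ,BEZ. Irf7, the regulator of interferon genes, was at 6.90, 6.73, 6.56, 6.63 and 6.87 in STZ,SD and at 6.37, 6.38, 6.38, 6.31 and 6.41 in STZ,BEZ. The treated arrays were tightly grouped near the 6.36 ± 0.14 (SD, n = 7) of Con,SD. The difference was -0.37 ± 0.08 (adjusted p = 0.298, limma).

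Rsad2, the antiviral enzyme viperin, was at 7.49, 7.55, 7.10, 6.87 and 6.87 in STZ,SD and at 6.83, 6.49, 6.67, 6.33 and 6.83 in STZ,BEZ, a difference of -0.55 ± 0.13 (adjusted p = 0.444). Gbp3, an interferon-induced GTPase, was at 7.41, 7.35, 6.97, 6.78 and 6.80 in STZ,SD and at 6.66, 6.72, 6.55, 6.57 and 6.65 in STZ,BEZ, a difference of -0.43 ± 0.11 (adjusted p = 0.732). For both, STZ,SD arrays 1 and 2 were highest and arrays 4 and 5 were barely above the treated group. Of 35 genes of TNF, IL-1 and NF-kB inflammation 27 were below 0 with a median of -0.05, among them the endotoxin receptor gene Tlr4 at -0.36 ± 0.13 (adjusted p = 0.778), which was -0.13 without STZ,SD arrays 2 and 3. The mean level of macrophage markers overlapped, with 7.13 to 7.85 in STZ,SD and 7.30 to 7.65 in STZ,BEZ.

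Serpina3n, a secreted protease inhibitor, was the gene that SAM called lower. It was at 8.12, 8.27, 7.98, 8.16 and 7.91 in STZ,SD and at 7.12, 7.57, 7.38, 7.55 and 7.23 in STZ,BEZ. The groups were apart by a clear gap, and the difference of -0.72 ± 0.29 did not pass limma over all 3 groups (adjusted p = 0.829), where Con,SD ranged from 8.07 to 10.34, but it passed in the fit of the 10 arrays alone. Hepatocyte markers moved in the same direction as Serpina3n. Of 13 measured hepatocyte markers 12 were below 0 with a median of -0.50, their mean level was 8.71, 9.02, 8.39, 8.25 and 8.74 in STZ,SD and 8.27, 8.41, 7.82, 7.88 and 8.51 in STZ,BEZ, and the albumin gene Alb differed by -0.70 ± 0.37 (adjusted p = 0.911). Serpina1c, a liver-made protease inhibitor, was entirely lower in STZ,BEZ (-1.08 ± 0.56, adjusted p = 0.911). The part of liver RNA in the value of Serpina3n was not tested.

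Of 17 measured glucocorticoid response genes 14 were below 0 with a median of -0.17, and all had overlapping groups. Zbtb16, a glucocorticoid-induced transcription factor, was at 10.65, 11.16, 11.08, 10.82 and 10.84 in STZ,SD and at 10.34, 10.51, 10.71, 10.47 and 10.64 in STZ,BEZ, a difference of -0.38 ± 0.10 (adjusted p = 0.703, limma). Fkbp5, a chaperone of the glucocorticoid receptor and one of its targets, was at 7.89, 9.04, 8.70, 7.57 and 7.68 in STZ,SD and at 7.25, 7.62, 7.24, 8.11 and 8.30 in STZ,BEZ (-0.47 ± 0.25, adjusted p = 0.914). STZ,SD arrays 2 and 3 were highest for both genes. Without these arrays the difference was -0.24 for Zbtb16 and -0.0063 for Fkbp5, and the median of the glucocorticoid list was 0.16, and without array 2 alone it was 0.02, so the direction of this list rested on those mice.

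Of 25 measured wasting genes and ubiquitin ligases 15 were below 0 with a median of -0.07. Without STZ,SD arrays 2 and 3 that median was 0.002, and without array 2 alone it was -0.02. With all arrays, 3 were lower and 1 higher at an unadjusted p under 0.05, against 2.14% lower and 3.55% higher over all genes. The groups were apart for 1 of the 25, against 0.677% of all genes that were entirely higher. The member whose groups were apart was higher in STZ,BEZ, namely Acvr2b, a receptor for myostatin and activin, at 7.44, 7.60, 7.64, 7.62 and 7.66 in STZ,SD and at 7.77, 7.93, 7.73, 7.80 and 7.82 in STZ,BEZ (0.22 ± 0.08, adjusted p = 0.778, limma). Trim63, the muscle ubiquitin ligase MuRF1, was at 10.11, 11.31, 10.48, 10.16 and 10.16 in STZ,SD and at 9.62, 9.78, 10.23, 10.05 and 10.31 in STZ,BEZ (-0.44 ± 0.19, adjusted p = 0.867, limma), with STZ,SD array 2 far above the rest. Sesn1, a stress protein that restrains mTORC1, differed by -0.53 ± 0.24 (adjusted p = 0.870) and Cblb, a ubiquitin ligase that acts on insulin signalling, by -0.27 ± 0.10 (adjusted p = 0.796). Without STZ,SD arrays 2 and 3 the differences were -0.14 for Trim63, -0.04 for Sesn1 and -0.16 for Cblb, and without array 2 alone they were -0.23 for Trim63 and -0.31 for Sesn1. Of 20 genes that mark denervated muscle 15 were below 0 with a median of -0.09. Chrna1, the acetylcholine receptor alpha subunit, was at 8.33, 8.58, 8.66, 8.13 and 8.40 in STZ,SD and at 7.73, 7.82, 7.94, 8.15 and 8.19 in STZ,BEZ (-0.45 ± 0.14, adjusted p = 0.778). Lox, which cross-links collagen, differed by -0.41 ± 0.12 (adjusted p = 0.778) and was higher in all 10 arrays of the STZ groups than in any Con,SD array.

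**Figure D4:**
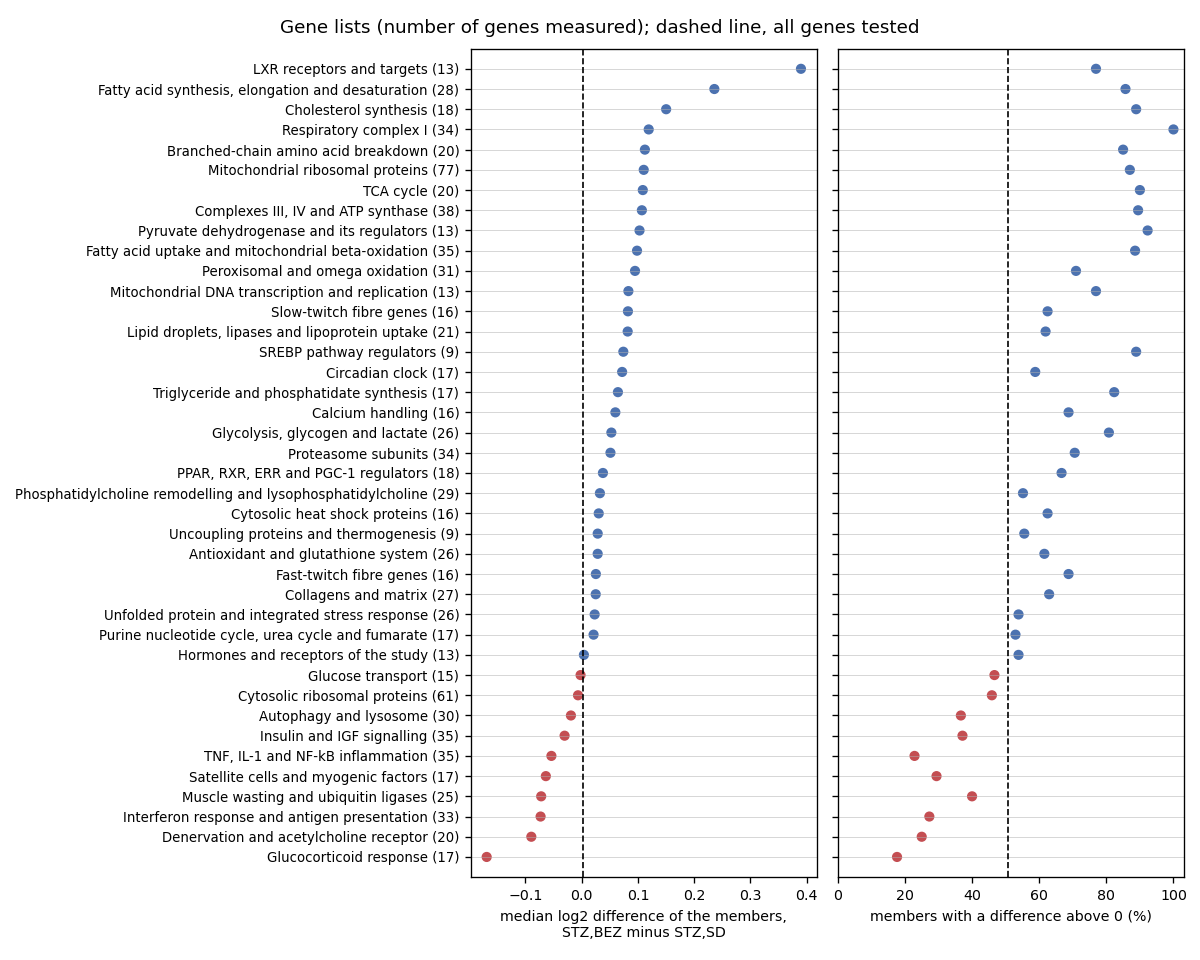
Median log2 difference (STZ,BEZ minus STZ,SD) and percent of measured members above 0 for each pathway list with at least 9 measured genes. The marker lists are not drawn. The dashed lines give all 19938 genes (0.002 and 50.7%). Among the pathway lists LXR (0.39) and fatty acid synthesis (0.24) have the largest medians, and complex I has 100% of its members above 0.

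Several genes outside the lists had non-overlapping groups and a SAM call. Gpr157, an orphan receptor, was at 8.59, 8.67, 8.78, 8.70 and 8.80 in STZ,SD and at 9.00, 9.06, 9.09, 9.23 and 9.03 in STZ,BEZ (0.38 ± 0.08, adjusted p = 0.293, limma). Ddo, a D-aspartate oxidase of peroxisomes, was at 7.61, 7.58, 7.75, 7.69 and 7.54 in STZ,SD and at 8.00, 7.94, 8.12, 8.06 and 8.01 in STZ,BEZ (0.39 ± 0.08, adjusted p = 0.298). Frzb, a secreted Wnt antagonist, was at 6.10, 5.67, 5.72, 6.15 and 5.80 in STZ,SD and at 6.76, 6.30, 6.70, 6.70 and 6.49 in STZ,BEZ (0.71 ± 0.15, adjusted p = 0.298). Between STZ,SD and Con,SD, a contrast that shares the STZ,SD arrays, the differences were -0.45 ± 0.08 for Ddo (adjusted p = 0.000619), -1.09 ± 0.14 for Frzb (adjusted p = 7e-05) and 0.02 ± 0.07 for Gpr157 (adjusted p = 0.842). Bmp2, a growth factor of the TGF-beta family, was 0.33 ± 0.07 higher in STZ,BEZ (adjusted p = 0.298), Mtg1, a mitochondrial ribosome GTPase, 0.34 ± 0.08 higher (adjusted p = 0.355) and Ltc4s, the leukotriene C4 synthase, 0.31 ± 0.09 higher (adjusted p = 0.778). Dbp, a clock output factor, belongs to the circadian clock list, where 10 of 17 measured genes were above 0 with a median of 0.07. It was apart as well without a SAM call, and was 0.68 ± 0.28 higher (adjusted p = 0.836), with STZ,SD array 2 lowest at 8.31. Without that array the difference of Dbp was 0.43, and without arrays 2 and 3 it was 0.30.

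Marker levels of other cell types were not the same in all samples. All 10 adipocyte markers were above 0 with a median of 0.26 (0.08 without STZ,SD arrays 2 and 3), though the levels overlapped, with 8.35, 7.54, 8.08, 8.20 and 8.41 in STZ,SD and 8.35, 8.82, 7.88, 8.52 and 8.48 in STZ,BEZ. Adipoq, the adiponectin gene of fat cells, was 0.45 ± 0.38 higher (adjusted p = 0.971, limma) and Cidec, a droplet protein of fat cells, 0.71 ± 0.35 higher (adjusted p = 0.895). Without STZ,SD arrays 2 and 3 the difference was 0.0006 for Adipoq and 0.48 for Cidec. Since fat cells also express fatty acid synthesis genes, these levels stand beside the lipogenic results. The part of fat cell RNA in those results was not tested. With the adipocyte level as a covariate, a setting chosen after seeing the data, the same 4 genes and no other were called. With the hepatocyte level as a covariate, also chosen after seeing the data, 19 genes were called higher and 0 lower. The 4 were among them, together with Abca1, Abcg1, Mylip, Fasn, Fads2, Cyp4a14 and Ehhadh. Both marker levels leaned with the diet, so neither fit can separate cell content from the drug. In bulk tissue fewer cells of a type and less RNA per cell cannot be told apart.

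Slow-twitch fibre genes varied widely among the STZ,SD mice. Of 16 measured genes 10 were above 0 and 6 below, with a median of 0.08 (0.40 without STZ,SD arrays 2 and 3). Slow-twitch genes had mean levels of 10.25, 9.73, 9.73, 8.40 and 8.09 in STZ,SD and 9.08, 10.17, 9.35, 9.17 and 9.61 in STZ,BEZ. Myl3, the slow myosin light chain, was 7.10 and 6.44 in STZ,SD arrays 4 and 5 and between 9.55 and 11.11 on the other arrays of both groups, so its difference of 1.33 ± 0.87 (adjusted p = 0.948, limma) and that of Tnnc1, the slow troponin C, of 0.96 ± 0.73 (adjusted p = 0.969) came with a wide spread. Mb, the oxygen store myoglobin, was 0.49 ± 0.17 higher (adjusted p = 0.778). Igfbp5, which binds insulin-like growth factors, was at 11.08, 9.34, 9.36, 11.44 and 11.38 in STZ,SD and at 11.35, 11.57, 11.51, 11.21 and 10.66 in STZ,BEZ. Its difference of 0.74 ± 0.34 (adjusted p = 0.870) turned to -0.04 without STZ,SD arrays 2 and 3. Other differences that shrank by over 1.5 times without these arrays were those of Adipoq (0.0006), Slc25a1 (0.44), Fads1 (0.34), Pltp (0.24), Dhcr7 (0.17), Hmgcs1 (0.08), Srebf2 (0.02), Plin2 (0.26), Fitm1 (0.15), Abcd2 (0.15), Ucp3 (0.02) and Pdk4 (-0.20). Those of Lpl (0.48), Myl3 (2.10), Tnnc1 (1.75), Ppara (0.32), Ppargc1a (0.15) and Pparg (-0.07) grew.

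**Figure D5:**
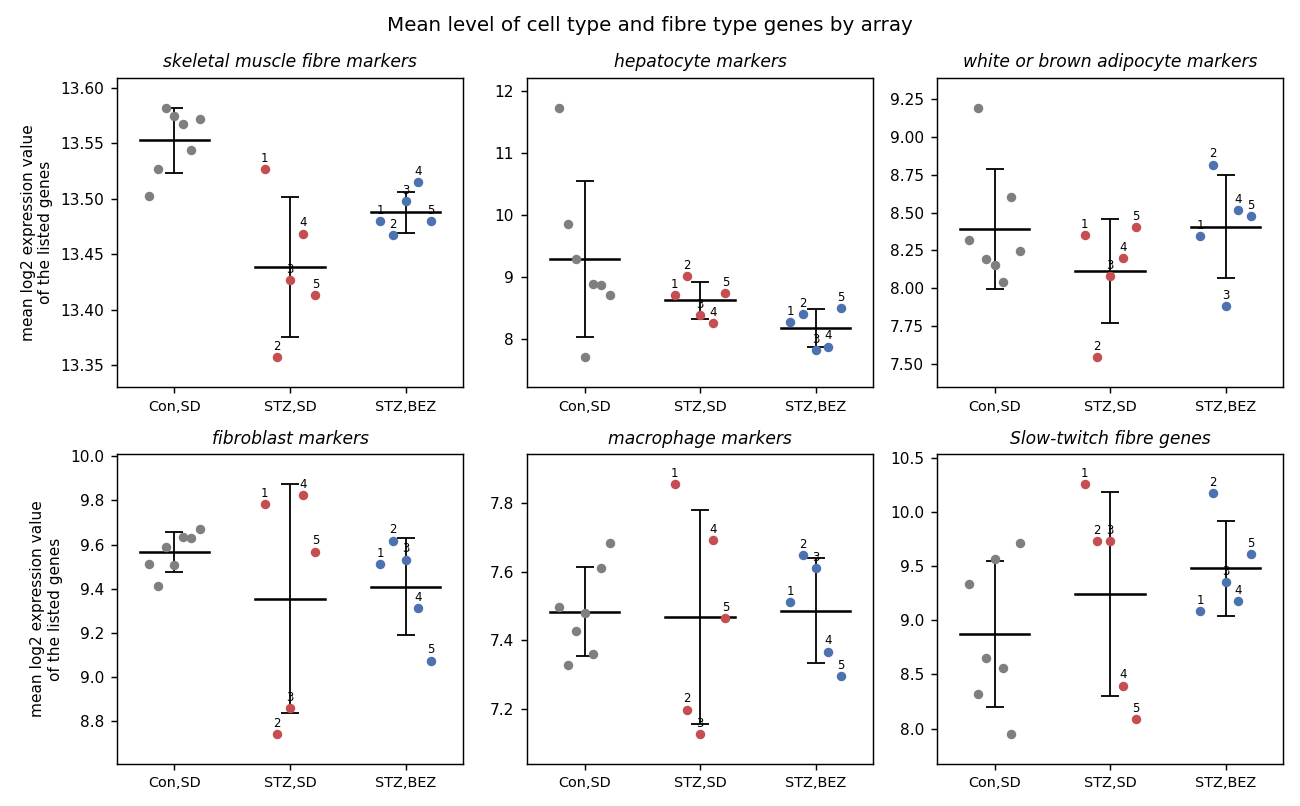
Mean log2 RMA level of the marker lists of 6 cell or fibre types on every array of Con,SD (n = 7), STZ,SD (n = 5) and STZ,BEZ (n = 5). Points are arrays, numbered in the STZ groups, and bars are the mean ± SD. Muscle fibre levels span only 13.36 to 13.58, hepatocyte markers are highest in Con,SD array 1 (11.73), and STZ,SD arrays 2 and 3 are lowest in fibroblast markers within their group.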

How the data were processed

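Total RNA of skeletal muscle was extracted by the authors with the miRNeasy kit including DNase treatment and hybridised to Affymetrix Mouse Gene 1.0 ST arrays, 1 array per biological replicate per the labels (Con,SD n = 7, STZ,SD n = 5, STZ,BEZ n = 5). No source used here names the muscle. The labels were followed where the methods text departs from them, which lists a smaller streptozotocin dose, untreated controls and bezafibrate at its higher strength alone.

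The deposited values are log2 expression values that the authors made with RMA (background correction, quantile normalization, median polish). The submitters' processing notes list Affymetrix Expression Console 1.2 for that step. Values lay between 2.76 and 14.6, array medians between 6.22 and 6.32, and 0 were missing. Because quantile normalization equalises the distribution of all arrays, it would hide any change that most genes share, and log2 levels of different probe sets are not on one scale. Arrays give no read depth, and their number limits the precision. No batch is given in the sources used here, so none was tested.

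The table held 35556 probe sets: 21789 with 1 gene symbol, 1621 with more than 1 and 12146 without any. Symbols came from the platform annotation, and 21698 of these probe sets were matched to a mouse gene table (GRCm38.p6), with 0 symbols updated. Each gene was represented by its brightest probe set with exactly 1 symbol, judged by the mean of the 17 arrays (999 genes had a choice), which gave 19938 genes. In a fit of all 35556 probe sets the same 4 genes were called and no probe set without a single symbol was.

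Groups came from the labels. All 17 arrays were fitted with limma 3.58.1 in R 4.3.3 (lmFit, eBayes), and genes with a Benjamini-Hochberg adjusted p under 0.1 over all genes were called, the false discovery rate of the study. SAM, the test of the study, was run as an own implementation with 100 permutations on the 10 STZ arrays. In the text SE is that of limma and "apart" means that the 5 values of one group lie entirely on one side of the other 5. The scripts were tested on simulated data.

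The members and the lists (41 pathway lists and 11 marker lists) were chosen with earlier results of these data known. Lists are described by counts and medians only, and 80 listed symbols were not matched to the table. By rule the text could name genes called by limma, SAM, the fit of 10 arrays or array weights, the 15 largest rises and 15 largest falls among genes with non-overlapping groups, at most 4 members from every list by lowest p, and the genes the study is about. The rule gave 245 genes, of which some are named, picked after their values were seen. Acly, Slc25a1, Fads1, Pltp, Nr1h3, Phyh, Abcd2 and Slc22a5 lie outside the rule and were also chosen after their values were seen.

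The alternatives were median centring of the arrays, repeated quantile normalization, a filter that drops the 30% of genes with the lowest mean, averaging the probe sets of a gene, the 10 STZ arrays alone, array weights, a trended and robust variance, SAM, the replicate number as a block and leaving out each array. Leaving out STZ,SD arrays 2 and 3 together and using the hepatocyte or adipocyte marker level as a covariate were chosen after seeing the data. Promoters came from RefSeq windows of GRCm38.p6 and were searched on both strands for exact motifs. Figures were drawn with matplotlib 3.10.9.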

Additional observations from a re-analysis of the deposited data

Results flagged for a closer look

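Within a group, single arrays stood far from the others in 28 of 285 checks of the named genes and marker lists (Dixon's criterion). The criterion flags about 1 in 20 checks of independent normal values. The genes here were picked after their values were seen and share the same arrays, so the count cannot be set against that rate.

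In STZ,BEZ, array 5 was the highest for Cyp4a14 (9.96), Cyp4a10 (8.10), Cyp4a31 (7.95) and Ehhadh (9.52), all genes of omega or peroxisomal oxidation. Array 3 was the highest for Fitm1 (11.76), Ppard (9.37), Sdhb (12.06) and Slc2a4 (11.47), array 2 for Lox (8.62) and Fads1 (9.26), and array 4 for Slc22a5 (7.39). In STZ,SD, array 5 was the highest for Acly (7.60), array 2 was the highest for Nr1h3 (7.80) and the lowest for Abcd2 (9.23), and array 1 was the lowest for Acvr2b (7.44).

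In Con,SD, array 1 was the highest for Elovl5 (9.99), Fads1 (10.01), Fads2 (10.52), Insig1 (9.96), Dhcr7 (7.95), Ehhadh (8.44), Phyh (11.42), Bmp2 (5.88) and the testis markers (mean level 8.98). Array 6 was the lowest for Slc25a20 (9.25) and Fh1 (11.04), and array 2 was the highest for Pparg (8.68) and Fkbp5 (7.68). The strength of bezafibrate eaten by the mouse of STZ,BEZ array 5 is not given by the labels, and its part in the values of that array was not tested.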

How the results depend on the processing

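Srebf1, Scd1, Scd2 and Lpcat3 were called higher under every alternative except the replicate block. The count was 4 higher and 0 lower under both rescalings, the filter on dim genes, the mean of probe sets, the trended variance and the adipocyte covariate. The 10 STZ arrays alone gave 7 higher and 1 lower (Serpina3n), array weights 10 and 1 (Irf7), SAM 24 and 1 (Serpina3n), and the hepatocyte covariate 19 higher. Leaving out single arrays gave 4 to 6 higher and 0 lower. With STZ,SD arrays 2 and 3 left out together 5 were higher, and the differences of the 4 genes were 1.00 (Srebf1), 1.93 (Scd1), 1.54 (Scd2) and 0.56 (Lpcat3).

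Deviations of same-numbered arrays correlated at -0.24 to -0.03, and those of differently numbered arrays at -0.45 to 0.40. These few values showed no sign of a pairing by replicate number but cannot exclude one. With the number as a replicate block on the 10 arrays 4 genes were higher and 3 lower (Mug1, Serpina1c and Serpina3n). Srebf1 and Scd2 stayed called with Fads2 and Frzb, while Scd1 (adjusted p = 0.147, limma) and Lpcat3 (adjusted p = 0.152) were not, and the cause was not tested.

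Signs turned for Pparg, Ucp3, Cd36, Ppara, Lpl and Ppard, which were near 0, and for Igfbp5 and Adipoq, which were not. Pparg was 0.0039 after median centring, 0.015 with array weights and 0.027 with the hepatocyte covariate, and ranged from -0.097 to 0.082 with single arrays left out. The same range was -0.022 to 0.21 for Ucp3, -0.14 to 0.037 for Cd36, -0.091 to 0.17 for Ppara and -0.029 to 0.28 for Lpl. Without STZ,SD arrays 2 and 3 Cd36 was 0.13, Ppard 0.096 and Igfbp5 -0.039. With the adipocyte covariate Adipoq was -0.073. The causes were not tested. The 5 arrays of each STZ group limit what can be called. Signal over background was not used here, so levels as low as those of Fgf21 and Cyp4a31 may lie near background, which was not tested.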
